A study of Homo sapiens with 6 samples.

Results

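The glycolysis and hypoxia genes are 38 genes chosen by symbol from the 60589 genes of an RNA-seq expression table: 17 glycolytic enzymes and 21 other genes tied to hypoxia. The 21 are 4 glucose and lactate transporters, 3 kinases that set the direction of glycolytic flux, HIF1A with 2 of its prolyl hydroxylases, and 11 further targets of the hypoxia-inducible factor. They were measured in SNU449, an established human hepatocellular carcinoma line, in 3 libraries of cells given a control siRNA (siControl) and 3 of cells in which MAD2L1, a spindle checkpoint protein, had been targeted by siRNA (siMAD2L1), all collected on day 3. Cells of both groups were kept in the same serum-containing medium, and no low-oxygen treatment is named. The labels do not say whether the replicate numbers mark separate cultures, so p-values below measure the spread between these libraries, which may be technical. Values are TPM, a measure of transcript abundance that is corrected for transcript length and adds up to the same total in every library. Read depth therefore cannot be recovered, and a TPM is a share of the library's RNA, not an amount per cell.

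Glycolysis turns glucose into pyruvate in a fixed order of enzymes, and lactate dehydrogenase then converts pyruvate to lactate, which monocarboxylate transporters carry out of the cell. When oxygen is low, prolyl hydroxylases no longer mark the HIF1A protein for destruction by the VHL ubiquitin ligase, and HIF1A with its partner ARNT switches on many genes of glucose uptake, glycolysis, mitophagy, collagen modification and vessel growth through a short DNA element. HIF1A is controlled mainly at the level of its protein, which RNA-seq does not measure. Many tumour cells, hepatocellular carcinoma among them, run glycolysis at a high rate also in the presence of oxygen.

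The short element has the core ACGTG or GCGTG, and the promoters of the members were searched for both, on both strands, in RefSeq windows of 250 bases before to 50 bases after each annotated start (GRCh38.p14). A window was found for 33 of the 38 members, 61 windows in all, since a gene can have several starts. The 5 windows below are shown because they belong to members whose RNA rose in siMAD2L1 and because they run from several matches to none. They read 5′ to 3′ on the strand of the gene, and capitals mark a match to either core on either strand, so that ACGTG on the other strand appears as CACGT. Where a match on each strand overlaps, giving CACGTG, it is counted as 1 place.
PGK1 (chrX:78103998-78104297, plus strand): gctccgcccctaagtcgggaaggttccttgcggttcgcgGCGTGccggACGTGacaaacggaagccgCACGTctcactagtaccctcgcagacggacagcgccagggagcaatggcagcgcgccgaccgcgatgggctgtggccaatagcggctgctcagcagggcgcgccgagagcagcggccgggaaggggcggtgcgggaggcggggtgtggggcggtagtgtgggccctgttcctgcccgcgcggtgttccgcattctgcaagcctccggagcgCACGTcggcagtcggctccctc
LDHA (chr11:18394313-18394612, plus strand): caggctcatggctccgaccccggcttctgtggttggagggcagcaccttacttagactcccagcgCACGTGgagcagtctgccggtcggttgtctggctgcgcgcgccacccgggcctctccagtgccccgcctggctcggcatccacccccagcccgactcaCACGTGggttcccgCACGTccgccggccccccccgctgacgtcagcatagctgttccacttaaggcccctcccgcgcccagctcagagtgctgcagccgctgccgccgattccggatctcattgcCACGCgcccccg
ANGPTL4 (chr19:8363905-8364204, plus strand): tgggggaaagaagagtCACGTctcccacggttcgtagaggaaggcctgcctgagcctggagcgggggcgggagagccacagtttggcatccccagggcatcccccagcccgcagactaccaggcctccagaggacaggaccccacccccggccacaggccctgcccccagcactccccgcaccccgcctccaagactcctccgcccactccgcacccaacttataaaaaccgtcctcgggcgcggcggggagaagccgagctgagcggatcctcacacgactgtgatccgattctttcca
SLC2A1 (chr1:42958819-42959118, minus strand): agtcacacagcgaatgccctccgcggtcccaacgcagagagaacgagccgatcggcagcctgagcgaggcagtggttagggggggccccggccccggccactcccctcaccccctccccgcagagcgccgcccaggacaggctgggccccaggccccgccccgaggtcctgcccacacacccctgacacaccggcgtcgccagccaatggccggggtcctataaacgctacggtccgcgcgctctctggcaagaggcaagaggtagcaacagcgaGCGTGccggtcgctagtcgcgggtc
P4HA2 (chr5:132227042-132227341, minus strand): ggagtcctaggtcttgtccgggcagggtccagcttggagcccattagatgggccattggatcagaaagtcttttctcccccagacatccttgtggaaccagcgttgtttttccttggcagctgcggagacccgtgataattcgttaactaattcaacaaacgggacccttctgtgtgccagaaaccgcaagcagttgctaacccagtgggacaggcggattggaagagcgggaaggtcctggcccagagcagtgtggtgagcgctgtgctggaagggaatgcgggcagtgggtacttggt
The PGK1 window held ACGTG at 3 places and the LDHA window shown at 3 places, ANGPTL4 at 1, SLC2A1 held only GCGTG, and P4HA2 held neither. LDHA has another window, not shown, which held no ACGTG and 1 GCGTG. Of the 61 windows, 24 (39.3%) held ACGTG and 41 (67.2%) held either core, against 21.4% and 48.4% of all 35116 promoter windows of this length. Split by the RNA data, ACGTG stood in 3 of 13 windows (23.1%) of the 6 risen members with a window and in 17 of 44 windows (38.6%) of the 24 members that were tested and not called. HK1 alone has 7 of these 13 windows, some nearly alike and none with ACGTG, and counted by gene the core stood in 3 of 6 risen members and 14 of 24 members not called. NDRG1 and BNIP3L, the risen members with the largest log2 fold changes (1.12 and 0.81), had no window and are not in this split. A match is a description of these letters and not a measured binding site.

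The targeted transcript was read first. MAD2L1 stood at 13.7 to 14.5 TPM across the controls, and at 4.47, 0.795 and 2.40 TPM in siMAD2L1 replicates 1, 2 and 3, or 18.2% of the siControl mean (log2 fold change -2.22, SE 0.357, limma adjusted p = 0.0105; exact two-sided permutation p = 0.1, the smallest that 3 against 3 libraries allow). Its adjusted p was 0.0531 and 0.0513 without siControl replicate 1 or 3, and it passed in the other 4 fits that left out a library. The treatment field names MAD2L2 and MAD2L3 for siMAD2L1 replicates 2 and 3, while the titles of all 3 name MAD2L1, and MAD2L2 itself did not pass the test (145 ± 6.16 TPM in the controls, 138 ± 15.3 TPM after knockdown, SD, n = 3 each; adjusted p = 0.698). siMAD2L1 replicate 1, which kept the most MAD2L1, stood apart from replicates 2 and 3 on the second principal component (a score of 40.0 against -24.7 and -11.9), so results that rest on it are given with and without it. The line expressed little of a hepatocyte programme. Of 9 hepatocyte markers 3 reached a mean of 1 TPM, and APOA2, APOB and TTR were listed at 0 in all 6 libraries. Hepatocyte markers summed to 10.9 to 14.8 TPM in the controls and 5.99 to 10.6 TPM after knockdown. VIM, a mesenchymal filament gene, was 9128 to 9986 TPM in the controls and 10541 to 11152 TPM after knockdown. Of the other mesenchymal markers, ZEB1 averaged 3.38 and 7.88 TPM, TWIST1 43.6 and 28.5 TPM, CDH2 34.3 and 31.8 TPM and FN1 55.4 and 56.6 TPM. Of 5 leukocyte markers, PTPRC was at most 0.06 TPM and CD3E was listed at 0, and none of 3 endothelial markers reached a mean of 1 TPM. CD68, a lysosomal gene that marks macrophages but is not confined to them, averaged 65.8 TPM in the controls and 137 TPM after knockdown. The share of TPM from mitochondrially encoded genes was 15.2% to 15.3% in siControl and 9.21% to 10.9% in siMAD2L1. CD14, another leukocyte marker, went the other way, from 5.24 to 11.3 TPM in the controls to 2.90 to 4.43 TPM after knockdown. The erythroid markers summed to 2.57 to 4.42 TPM in the controls and 8.68 to 14.2 TPM after knockdown, nearly all of it HBA1, with 1 of the 3 markers listed at 0 throughout. Epithelial markers, mainly KRT8 and KRT18, summed to 411 to 426 TPM in the controls and 279 to 309 TPM after knockdown, and leukocyte markers, mainly CD68, to 69.7 to 77.2 and 129 to 150 TPM. The part of these differences in the results was not tested.

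Of the 38 members, 35 reached the filter of a mean of 1 TPM, and 8 of these were higher in siMAD2L1 at an adjusted p under 0.05, while none was lower. The 8 were HK1, PGK1 and LDHA among the enzymes, and SLC2A1, NDRG1, BNIP3L, P4HA2 and ANGPTL4 among the other hypoxia genes. Over all 14790 genes tested, 1446 were called (9.78%), of which 525 were higher (3.55%) and 921 lower (6.23%). In 18 members every siMAD2L1 library was above every siControl library, and in 1, PKM, every one was below. The corresponding shares of all tested genes were 11.3% and 21.5%. The median log2 fold change was 0.25 over the 35 members and -0.08 over all tested genes. These numbers rest on the libraries used: 2 members were called higher without siControl replicate 1 (0.998% of all genes tested in that fit), 5 without siControl replicate 2 (1.76%), 3 without siControl replicate 3 (1.12%), and 12 without siMAD2L1 replicate 1 (4.78%), where 3 were also called lower (11.5%). The share of all genes called higher thus moved with the number of members. In bulk RNA, fewer cells of a state (of a cell cycle phase, for instance) and less RNA per cell cannot be told apart.

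**Figure D1:**
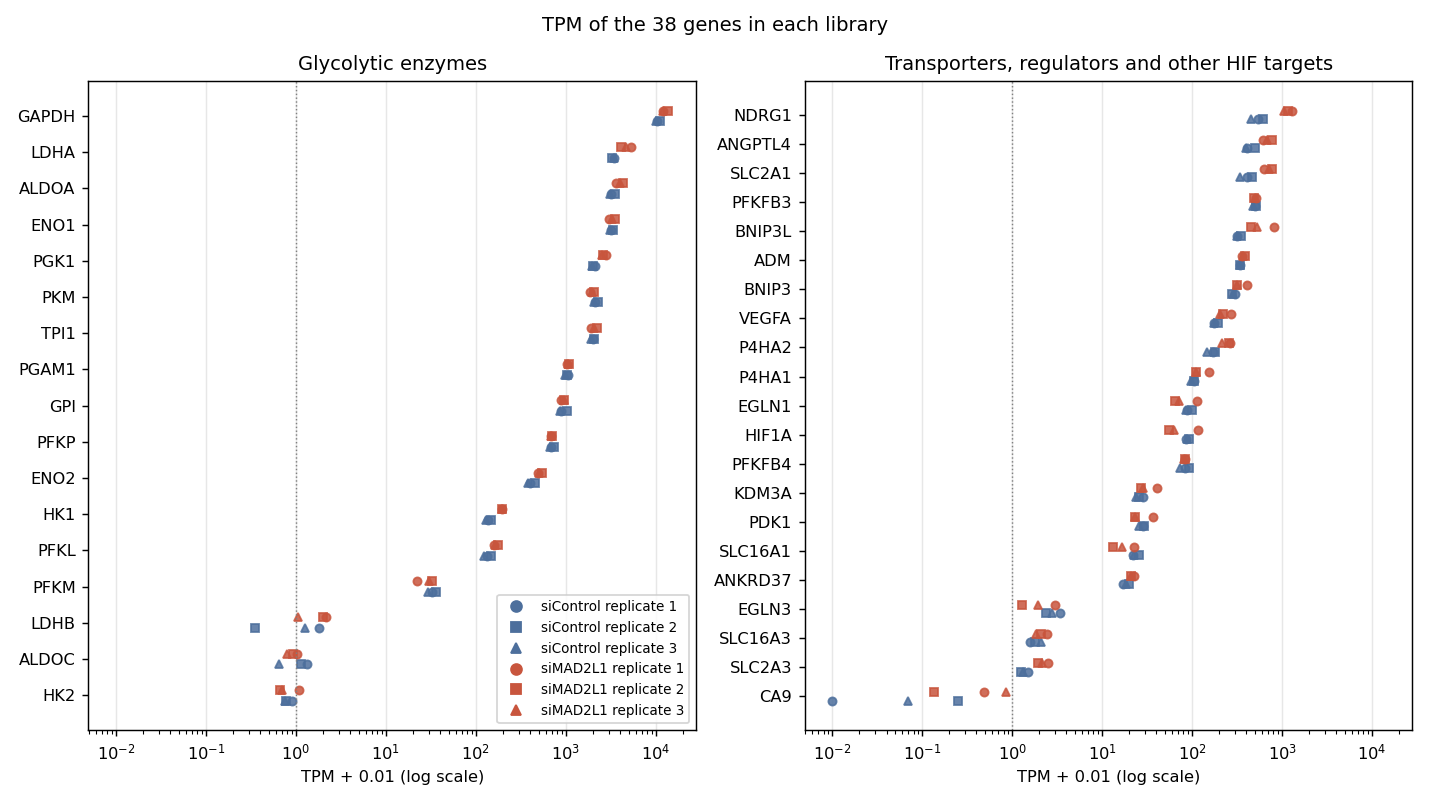
TPM of each member in the 3 siControl and 3 siMAD2L1 libraries, 1 point per library, on a log axis. Levels run from GAPDH, at 10055 TPM or more, down to HK2, ALDOC and CA9 near or under 1 TPM, and the points of the groups lie apart for NDRG1, SLC2A1 and HK1.

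The upper steps of glycolysis split by isoenzyme. Hexokinase traps glucose in the cell as glucose 6-phosphate, and HK1 (ENSG00000156515) was the more abundant of the 2 hexokinases among the members. It lies on chromosome 10 from 69269984 to 69401884 (plus strand, GRCh38) and measured 135, 148 and 129 TPM in siControl and 196, 193 and 194 TPM in siMAD2L1. All 3 siMAD2L1 libraries were nearly level and clear of the controls, with a log2 fold change of 0.50 (SE 0.0751, adjusted p = 0.00836). Without siControl replicate 1 the adjusted p was 0.0574 at a log2 fold change of 0.48. HK2, the hexokinase that many tumours induce, was under the filter at 0.664 to 1.075 TPM over the 6 libraries, with overlapping groups. GPI, which isomerises the hexose phosphate, measured 927 ± 86.3 and 932 ± 48.6 TPM (SD, n = 3 each; log2 fold change 0.01, 95% interval -0.18 to 0.20).

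Phosphofructokinase makes the committed step and is built from 3 kinds of subunit. PFKP was the main subunit RNA, at 687, 742 and 661 TPM in siControl and 683, 712 and 687 TPM in siMAD2L1. Its groups overlapped and the 95% interval of the log2 fold change ran from -0.16 to 0.15. PFKL, the liver-type subunit, measured 132, 147 and 124 TPM against 158, 177 and 163 TPM. The groups did not overlap, but the call was missed (0.30, SE 0.0887, adjusted p = 0.0702). Without siMAD2L1 replicate 1 PFKL passed, at 0.34 (adjusted p = 0.0473). PFKM, the muscle-type subunit, was 32.8, 36.0 and 29.2 TPM against 22.5, 32.4 and 29.9 TPM, with overlap (-0.21, adjusted p = 0.413).

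Aldolase splits the hexose into triose phosphates, and ALDOA supplied nearly all of its RNA. It measured 3160, 3522 and 3081 TPM in siControl and 3599, 4307 and 4024 TPM in siMAD2L1. Each siMAD2L1 library was above each control, with a log2 fold change of 0.29 that missed the threshold (SE 0.0887, adjusted p = 0.0824) and passed without siMAD2L1 replicate 1 (0.36, adjusted p = 0.0247). ALDOC, the brain-type aldolase, stayed under the filter at 0.647 to 1.31 TPM over the 6 libraries. TPI1, which interconverts the trioses, measured 1978 ± 65.1 and 2059 ± 156 TPM (SD, n = 3 each; 0.06, 95% interval -0.12 to 0.23).

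The lower, energy-yielding steps of the pathway held the other called enzymes. GAPDH, which oxidises the triose phosphate and is widely used as a reference gene, was the most abundant member, at 10434, 11200 and 10055 TPM in siControl and 12025, 13865 and 12200 TPM in siMAD2L1. All 3 siMAD2L1 libraries exceeded the highest control, and the log2 fold change of 0.26 missed the threshold (SE 0.0818, adjusted p = 0.0838). It passed without siMAD2L1 replicate 1 (0.30, adjusted p = 0.0477), and under quantile normalization. PGK1 (ENSG00000102144), which makes the first ATP of the pathway, lies on chromosome X from 77910739 to 78129296 (plus strand, GRCh38). It measured 2132, 2027 and 1939 TPM against 2796, 2608 and 2506 TPM. The groups were well apart and PGK1 rose, by 0.37 (SE 0.0709, adjusted p = 0.0181). Its adjusted p was 0.0696, 0.0622 and 0.0860 without siControl replicate 1, 2 or 3. Under quantile normalization PGK1 was not called.

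The main enzymes of the next 2 steps had close means, and neither passed the test. PGAM1, the phosphoglycerate mutase, measured 1027 ± 34.8 and 1058 ± 40.5 TPM (log2 fold change 0.04, 95% interval -0.10 to 0.19), and ENO1, the main enolase, 3230 ± 143 and 3274 ± 240 TPM (0.02, -0.16 to 0.19; SD, n = 3 in each group). ENO2, the neuron-type enolase, measured 402, 451 and 382 TPM in siControl and 493, 549 and 500 TPM in siMAD2L1. These groups did not overlap, and ENO2 lay just beyond the threshold (0.32, SE 0.0838, adjusted p = 0.0503) and within it without siMAD2L1 replicate 1 (0.35, adjusted p = 0.0377). PKM, the pyruvate kinase, was the member with all siMAD2L1 libraries below the controls, at 2099, 2283 and 2063 TPM against 1856, 2056 and 1962 TPM. The nearest libraries of the 2 groups, 2063 and 2056 TPM, were almost equal, and the difference did not pass (-0.13, SE 0.0714, adjusted p = 0.279).

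LDHA, the lactate dehydrogenase subunit that favours lactate formation and a textbook HIF target (ENSG00000134333), lies on chromosome 11 from 18394388 to 18408425 (plus strand, GRCh38). It measured 3467, 3249 and 3403 TPM in siControl and 5330, 4158 and 4652 TPM in siMAD2L1. LDHA rose by 0.48 on the log2 scale (SE 0.0951, adjusted p = 0.0217), with siMAD2L1 replicate 1 the highest library and no overlap. The adjusted p was 0.0851, 0.0818 and 0.0830 when siControl replicate 1, 2 or 3 was left out and 0.0688 when siMAD2L1 replicate 3 was. LDHB, the other common subunit, was almost absent, at 1.81, 0.338 and 1.27 TPM against 2.13, 2.01 and 1.05 TPM. Its processed copies summed to 98.5% of its TPM in siControl and 26.2% in siMAD2L1, so the split of reads between LDHB and these copies is uncertain.

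Added up, the 17 enzymes took 29834, 31283 and 28733 TPM in siControl and 33977, 36435 and 34298 TPM in siMAD2L1. That is 2.99% ± 0.128 and 3.49% ± 0.134 of all TPM (SD, n = 3 each), with no overlap. GAPDH carried a large part of the sum, and without it the enzymes took 1.94% ± 0.0702 and 2.22% ± 0.0323, again without overlap. The 21 other hypoxia genes summed to 0.364% ± 0.0273 and 0.530% ± 0.0376. Without the 5 of them that were called, the other hypoxia genes summed to 0.177% ± 0.00481 and 0.192% ± 0.0193 with overlapping groups. These 5 were picked from the same data for being higher, so a smaller difference without them was fixed in advance. The enzyme sum without GAPDH kept its 3 called enzymes, so the reduced sums are not alike. All these shares are of a total that includes mitochondrially encoded genes. Those took 15.2% to 15.3% of TPM in siControl and 9.21% to 10.9% in siMAD2L1. A smaller mitochondrial share leaves a larger one to all other genes, and its part in these sums was not tested.

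**Figure D2:**
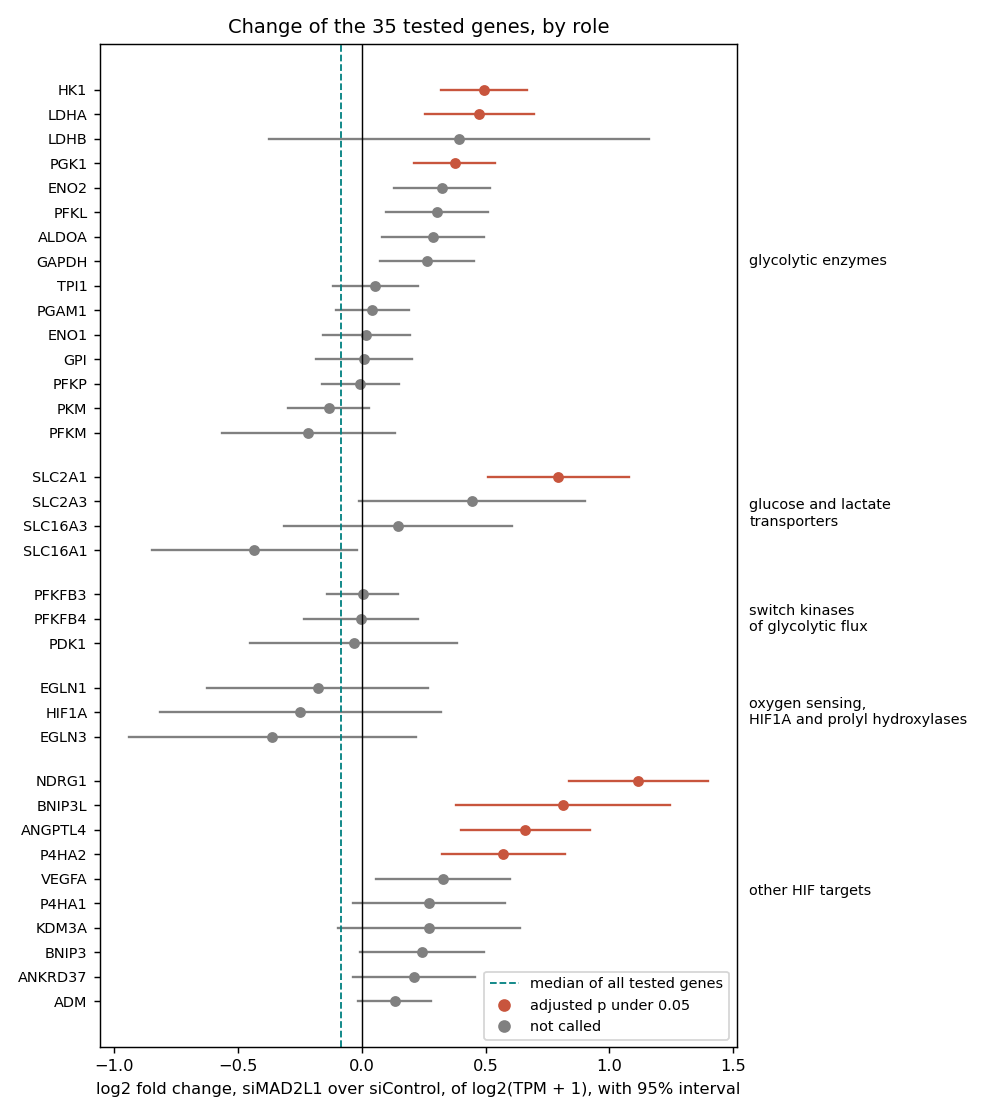
Log2 fold change of each tested member, siMAD2L1 against siControl, with its 95% interval from limma, ordered by role. NDRG1 lies farthest from 0 at 1.12, and PFKFB3, PFKFB4 and PFKP lie closest to 0.

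Among the transporters, SLC2A1 stood out. SLC2A1 (ENSG00000117394), the basal glucose transporter of many cells, lies on chromosome 1 from 42925375 to 42959176 (minus strand, GRCh38) and measured 409, 465 and 341 TPM in siControl and 627, 765 and 708 TPM in siMAD2L1. It rose by 0.79 on the log2 scale (SE 0.123, adjusted p = 0.00929), with a wide gap between the groups. It passed in all 6 fits that left out a library, with adjusted p up to 0.0468. With siMAD2L1 replicate 1 alone against the controls the adjusted p was 0.0870 at 0.64.

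The other transporters were low. SLC2A3, a high-affinity glucose transporter, measured 1.49, 1.23 and 1.31 TPM against 2.49, 1.95 and 2.13 TPM, without overlap (0.44, SE 0.198, adjusted p = 0.202). Its named copies summed to 18.6% of its TPM in siMAD2L1. SLC16A1, a lactate transporter of wide expression, measured 22.1, 25.3 and 22.5 TPM against 22.4, 13.3 and 16.5 TPM. siMAD2L1 replicate 1 lay among the controls and replicates 2 and 3 below them, so that SLC16A1 was not called over all libraries (-0.43, adjusted p = 0.171) but was lower without replicate 1 (-0.62, adjusted p = 0.0201). SLC16A3, the lactate exporter of glycolytic cells and a HIF target, was 1.55 to 2.06 TPM in siControl and 1.81 to 2.42 TPM in siMAD2L1, with overlap.

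None of the 3 kinases that steer glycolytic flux passed the test, and their means were close. PFKFB3, which makes the activator of phosphofructokinase, measured 498, 511 and 480 TPM against 507, 483 and 502 TPM, with a 95% interval of the log2 fold change of -0.14 to 0.15. PFKFB4, a second such enzyme and a HIF target, measured 83.3, 93.2 and 73.1 TPM against 82.8, 84.3 and 80.9 TPM (-0.23 to 0.23). PDK1, which inhibits pyruvate dehydrogenase, measured 28.4, 29.3 and 25.3 TPM against 36.7, 23.0 and 23.3 TPM. For PDK1 siMAD2L1 replicate 1 was above all controls and replicates 2 and 3 below all of them, and the interval was wide (-0.45 to 0.39).

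HIF1A and EGLN1 had a like split among the siMAD2L1 libraries. HIF1A, the oxygen-regulated subunit, measured 84.5, 91.7 and 87.7 TPM in siControl and 116, 54.6 and 63.5 TPM in siMAD2L1. EGLN1, the main oxygen sensor of the family, measured 88.4, 98.4 and 86.3 TPM against 113, 64.3 and 71.2 TPM. In both genes replicate 1 was higher than every control and replicates 2 and 3 lower than every control. Neither was called over all 6 libraries (HIF1A -0.25, adjusted p = 0.568; EGLN1 -0.18, adjusted p = 0.606). Without siMAD2L1 replicate 1 both were lower, HIF1A at -0.57 (adjusted p = 0.00979) and EGLN1 at -0.42 (adjusted p = 0.0233). In replicate 1 alone the values were 0.40 (adjusted p = 0.0572) and 0.31 (adjusted p = 0.130). EGLN3, a hydroxylase that HIF itself induces, was low, at 3.39, 2.38 and 2.75 TPM against 2.94, 1.27 and 1.94 TPM, with overlap.

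NDRG1, a stress and differentiation gene induced by hypoxia (ENSG00000104419), rose the most of the 35 tested members. It lies on chromosome 8 from 133237171 to 133302022 (minus strand, GRCh38) and measured 536, 620 and 456 TPM in siControl and 1274, 1158 and 1052 TPM in siMAD2L1. The lowest siMAD2L1 library was well above the highest control, and the log2 fold change was 1.12 (SE 0.121, adjusted p = 0.00263). NDRG1 is the member that was called under all 20 alternative settings, with log2 fold changes of 0.98 to 1.26.

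Of the mitophagy receptors, which tag mitochondria for removal, BNIP3L passed the test and BNIP3 did not. BNIP3L (ENSG00000104765; chromosome 8, 26382898 to 26505636, plus strand, GRCh38) measured 317, 351 and 319 TPM in siControl and 803, 456 and 527 TPM in siMAD2L1. All siMAD2L1 libraries were above the controls, replicate 1 by far the most, and BNIP3L rose by 0.81 (SE 0.186, adjusted p = 0.0345). Without replicate 1 it still passed, at 0.58 (adjusted p = 0.00884). The adjusted p was 0.119, 0.0901 and 0.117 without siControl replicate 1, 2 or 3 and 0.0771 without siMAD2L1 replicate 3. Under quantile normalization BNIP3L was not called. BNIP3 measured 298, 277 and 285 TPM against 404, 312 and 312 TPM. Its groups did not overlap, but replicates 2 and 3 lay close to the controls (0.25, adjusted p = 0.198).

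Of the collagen prolyl hydroxylases, which stabilise collagen as it folds, P4HA2 passed the test and P4HA1 did not. P4HA2 (ENSG00000072682; chromosome 5, 132191838 to 132295315, minus strand, GRCh38) measured 170, 179 and 145 TPM in siControl and 264, 255 and 217 TPM in siMAD2L1. It rose by 0.57 without overlap (SE 0.108, adjusted p = 0.0180), and the adjusted p was 0.0696, 0.0690 and 0.0551 when siControl replicate 1, siControl replicate 3 or siMAD2L1 replicate 2 was left out. P4HA1 measured 105, 104 and 97.1 TPM against 154, 111 and 110 TPM. Here replicates 2 and 3 exceeded the highest control by little and replicate 1 by much (0.27, adjusted p = 0.239).

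Secreted factors made up the next group. ANGPTL4, a lipoprotein lipase inhibitor that hypoxia and lipid-sensing receptors induce (ENSG00000167772), lies on chromosome 19 from 8363289 to 8374373 (plus strand, GRCh38). It measured 403, 494 and 399 TPM in siControl and 609, 764 and 675 TPM in siMAD2L1. ANGPTL4 rose by 0.66 with a clear gap (SE 0.113, adjusted p = 0.0132), and its adjusted p was 0.0685 and 0.0632 without siControl replicate 1 or 3. VEGFA, the main vessel growth factor under HIF control, measured 176, 196 and 176 TPM against 273, 219 and 202 TPM. The groups did not overlap, and the log2 fold change of 0.33 missed the threshold (SE 0.117, adjusted p = 0.120). ADM, a vasodilator peptide, was close to 339 TPM in every control and measured 360, 388 and 367 TPM in siMAD2L1, all above the controls (0.13, SE 0.0630, adjusted p = 0.227).

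The remaining targets moved little or were low. ANKRD37, a small HIF target, measured 17.2, 19.9 and 18.2 TPM against 22.7, 20.9 and 20.7 TPM, without overlap (0.21, adjusted p = 0.250). KDM3A, a histone demethylase induced by hypoxia, measured 28.2, 26.0 and 23.6 TPM against 40.2, 27.1 and 28.4 TPM, and its groups overlapped (0.27, adjusted p = 0.326). CA9, a carbonic anhydrase often used as a tissue marker of hypoxia, was listed at 0, 0.240 and 0.060 TPM in the controls and reached 0.469, 0.124 and 0.843 TPM after knockdown. CA9 was thus hardly expressed in either group, and it was under the filter.

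Set side by side, the glycolytic enzymes and the other hypoxia genes had similar medians at the filter of a mean of 1 TPM. The enzyme median was the value of GAPDH, with TPI1 next below it at 0.06. At a mean of at least 5 TPM, which LDHB does not reach, the medians were 0.16 and 0.245. With no filter they were 0.055 and 0.245. Over all tested genes 3.55% were called higher, 11.3% were higher without overlap and 21.5% lower without overlap. Of 15 tested enzymes 3 were called higher, 7 were higher without overlap and 1 lower without overlap. Their median log2 fold change was 0.26. Of 20 tested other hypoxia genes 5 were called higher and 11 were higher without overlap, with a median of 0.23. Within the latter, the 10 tested HIF targets had a median of 0.30, with 9 higher without overlap, the 4 transporters a median of 0.30, the 3 kinases of -0.0026 and the 3 oxygen-sensing genes of -0.25. No test of the difference between the sets was made, since their genes are not replicates. With siControl replicate 1, 2 or 3 left out, 0, 1 and 1 enzymes and 2, 4 and 2 other hypoxia genes were called higher. In the same fits 0.998%, 1.76% and 1.12% of all genes tested were called higher.

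Library by library, the order of the sets changed. The median difference from the siControl mean over the enzymes was 0.15, 0.30 and 0.08 in siMAD2L1 replicates 1, 2 and 3, and over the other hypoxia genes 0.45, 0.13 and 0.12. Over all tested genes it was 0.02, -0.15 and -0.12. Replicate 1 was above the mean of replicates 2 and 3 in 17 of 20 other hypoxia genes (median difference 0.29 on the log2 scale, from -0.24 to 0.97) and in 4 of 15 enzymes (median -0.10, from -0.45 to 0.33). This difference between the libraries also went with transcript length: Spearman's rho between length and replicate 1 minus the mean of replicates 2 and 3 was 0.27 across 14363 genes and 0.42 across the 35 members, which share these libraries and are not independent. The median transcript length was 2769 bases in the enzymes and 3813 bases in the other hypoxia genes. Length here is that of the longest annotated spliced transcript of a gene, which need not be the one expressed. The part of transcript length in these differences was not tested.

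**Figure D3:**
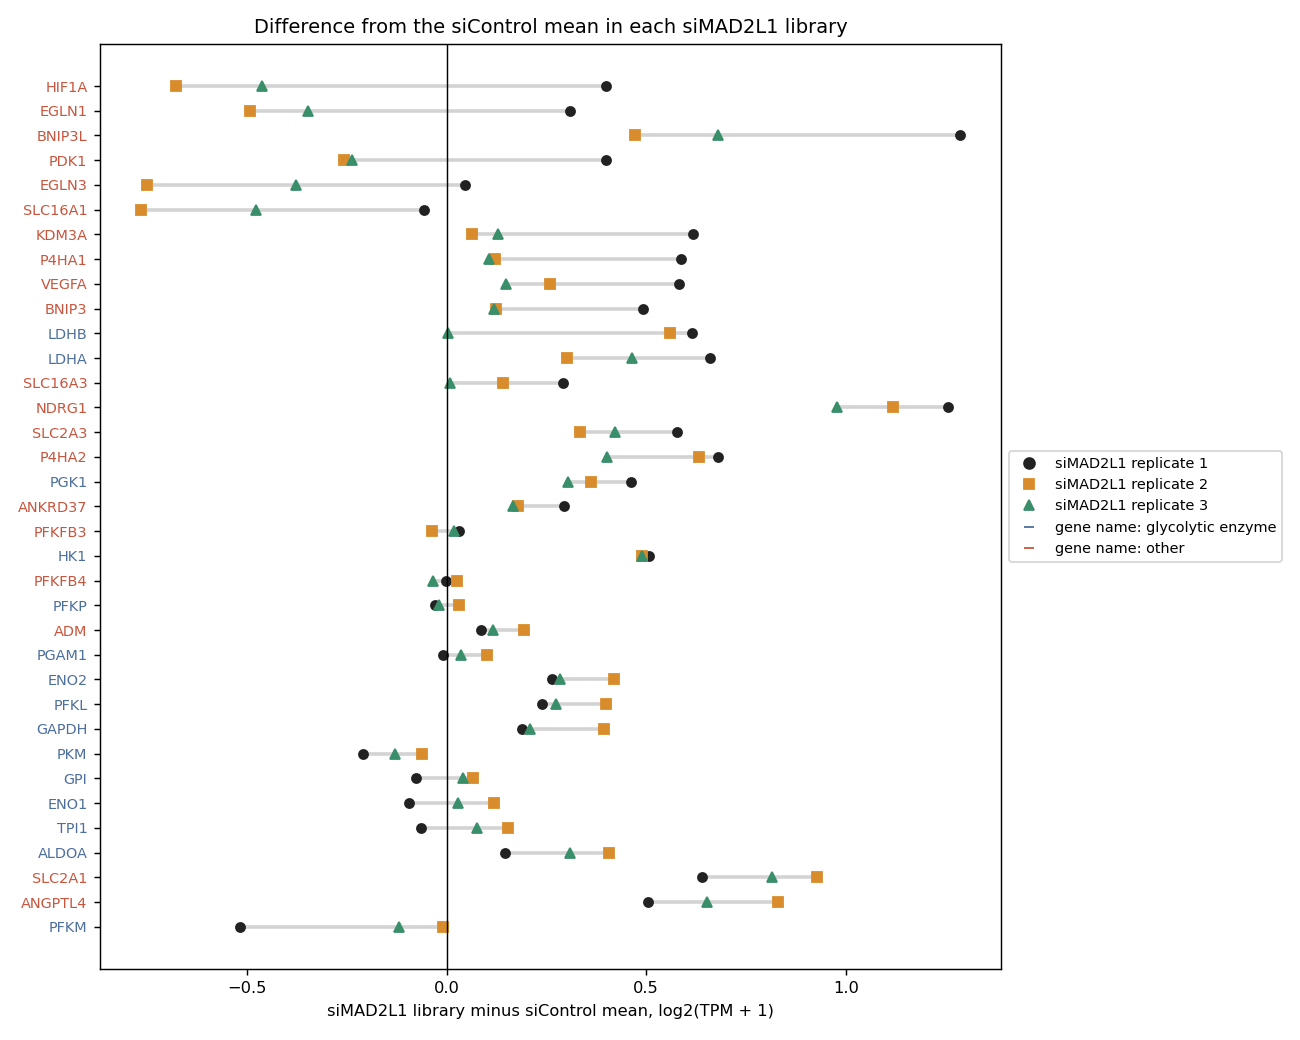
Difference of each siMAD2L1 library from the siControl mean on the log2(TPM + 1) scale, 1 row per tested member, ordered by replicate 1 minus the mean of replicates 2 and 3. Replicate 1 lies on the other side of 0 from replicates 2 and 3 for HIF1A, EGLN1 and PDK1, while the 3 libraries of HK1 fall almost on a single point.

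Without siMAD2L1 replicate 1, the called members were 12 higher and 3 lower. The 8 members called over all libraries stayed among the 12, and PFKL, ALDOA, GAPDH and ENO2, all enzymes, joined them. The 3 lower members were SLC16A1, HIF1A and EGLN1. In this fit 4.78% of all 14834 genes tested were called higher and 11.5% lower. With replicate 1 alone against the controls, 8 members were higher: PGK1, LDHA, NDRG1, BNIP3L and P4HA2 of the former 8, and VEGFA, BNIP3 and P4HA1, beside 4.62% of all 15074 genes tested. That fit assumes that the lone library varies as the controls do.

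Within pairs of related genes, the share of TPM taken by a partner does not depend on how libraries are scaled. Of 11 shares compared, 5 had groups that did not overlap (exact two-sided permutation p = 0.1 each, the smallest possible, and 0.22 after Benjamini-Hochberg adjustment over the 11), so none can pass the threshold at this size. ENO2 took 11.3% ± 0.412 of enolase RNA (ENO1 and ENO2) in siControl and 13.6% ± 0.410 in siMAD2L1. PFKP took 80.7% ± 0.490 of phosphofructokinase RNA in siControl and 78.1% ± 0.907 in siMAD2L1. The second mitophagy gene, BNIP3L, took 53.4% ± 2.29 and 62.9% ± 3.59 of the RNA of its pair. SLC16A3 took 7.19% ± 1.04 and 11.1% ± 2.13 of the RNA of the lactate transporters, although both of these were low. P4HA2 took 61.6% ± 1.62 and 66.4% ± 3.24 of its pair, and the closest libraries of the 2 groups both stood at 63.1% (SD, n = 3 in each group throughout).

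The other 6 shares overlapped. PFKFB4 took 14.3% ± 1.11 of the pair with PFKFB3 in siControl and 14.3% ± 0.520 in siMAD2L1 (exact permutation p = 1.0). HK2 (0.583% and 0.416%), ALDOC (0.0316% and 0.0230%), LDHB (0.0332% and 0.0369%), SLC2A3 (0.336% and 0.316%) and EGLN3 (3.05% and 2.38%) were minor partners in both groups, with exact permutation p from 0.2 to 0.9. The choice of a main isoenzyme thus did not turn over in any of the 11 comparisons.

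**Figure D4:**
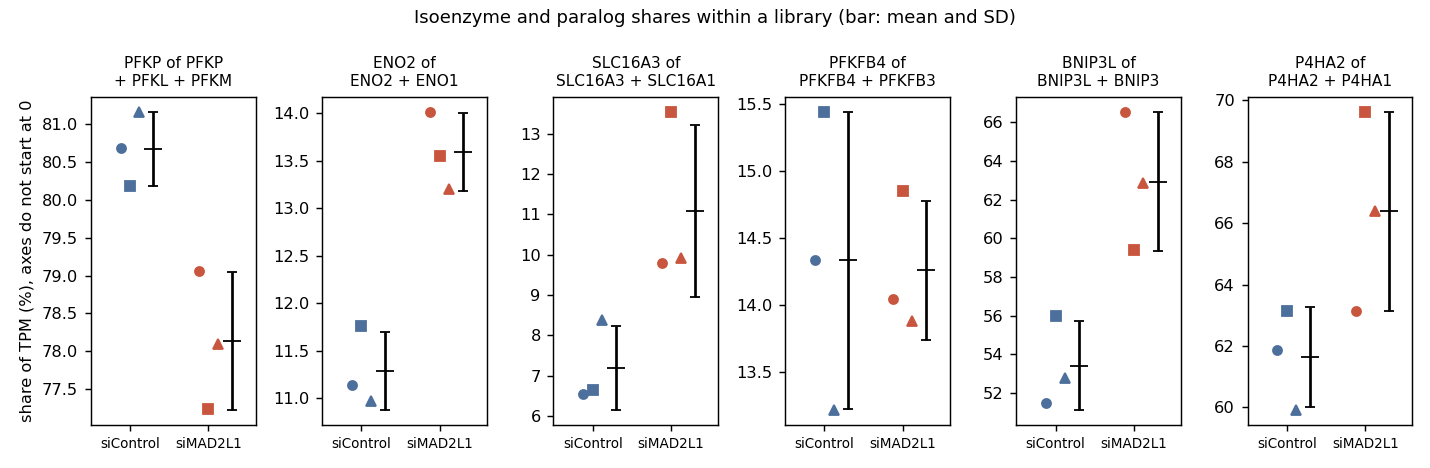
Share of TPM, in percent, taken by the named gene within its pair or trio, 1 point per library, siControl and siMAD2L1 side by side. The ENO2 share averages 11.3% in siControl and 13.6% in siMAD2L1 with no overlap, while the PFKFB4 share overlaps.

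Genes around the members were read from lists of pathway membership. Of 31 tested further HIF and hypoxia targets, 10 were higher and 1 lower, with a median log2 fold change of 0.29, beside 3.55% higher and 6.23% lower over all genes. LOX, a collagen cross-linking oxidase, rose by 1.15 (SE 0.159, adjusted p = 0.00644), from 74.0, 84.4 and 65.4 TPM to 211, 145 and 148 TPM. IGFBP3, a binding protein of insulin-like growth factors, rose by 0.97 (SE 0.103, adjusted p = 0.00248), from 1074, 1080 and 990 TPM to 2386, 1955 and 1837 TPM. Both passed in all 6 fits that left out a library, and so did the fall of NOL3, an apoptosis repressor (-0.87, SE 0.0790, adjusted p = 0.00153). CXCR4, a chemokine receptor, rose from 2.69 to 5.77 TPM (0.88, SE 0.164, adjusted p = 0.0171) and passed in 1 of those 6 fits, the one without siMAD2L1 replicate 1, with adjusted p of 0.0528 to 0.0690 in the others. The number called higher in the list was 5 when siControl replicate 1 was left out, 6 when siControl replicate 3 or siMAD2L1 replicate 3 was, and 13, with 5 lower, when siMAD2L1 replicate 1 was. The share of all genes called higher in these fits was 0.998%, 1.12%, 1.58% and 4.78% in that order, with 11.5% lower in the last.

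Components of the HIF pathway itself gave 2 higher and 1 lower of 16 tested, with a median of 0.04. Over all tested genes 3.55% were higher and 6.23% lower. CITED2, which competes with HIF for its coactivators and is also a HIF target, rose from 289 ± 9.36 to 411 ± 24.8 TPM (SD, n = 3 each; 0.50, SE 0.0714, adjusted p = 0.00666) and passed in all 6 fits that left out a library. SIAH2, a ubiquitin ligase that targets prolyl hydroxylases, rose from 26.7 to 36.7 TPM (0.44, adjusted p = 0.0198; 0.0965 without siControl replicate 1). VHL, the ligase subunit that recognises hydroxylated HIF, fell from 22.9 to 16.0 TPM (-0.50, adjusted p = 0.0498; 0.183 without siControl replicate 1). With a library left out, SIAH2 and VHL passed only in the fit without siMAD2L1 replicate 1.

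In the neighbouring branches of glucose metabolism, the called genes were mostly lower, as were 63.7% of all called genes. Over all tested genes 3.55% were called higher and 6.23% lower. TKT, a transketolase of the pentose phosphate pathway, fell from 996 to 753 TPM (-0.40, SE 0.0831, adjusted p = 0.0251). With a library left out, TKT passed only in the fit without siMAD2L1 replicate 1, and its adjusted p reached 0.0883 without siControl replicate 3. Of 29 genes of pyruvate dehydrogenase and the TCA cycle, 0 rose and 4 fell, with a median of -0.10: MDH1 (-0.62, adjusted p = 0.00913), PDK2 (-0.56, adjusted p = 0.0466), FH (-0.55, adjusted p = 0.0135) and IDH3B (-0.32, adjusted p = 0.0493). Without siControl replicate 1 none of these 4 passed, MDH1 being nearest at an adjusted p of 0.0564. Of the 4, MDH1 alone passed without siControl replicate 3, MDH1 and FH passed without siControl replicate 2 or siMAD2L1 replicate 2 or 3, and all passed without siMAD2L1 replicate 1. No test of a difference between lists was made.

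In gluconeogenesis and glycogen metabolism 1 of 10 tested genes rose and 2 fell, with a median of 0.15. Over all tested genes 3.55% were higher and 6.23% lower. PYGL, the liver glycogen phosphorylase, rose from 137 ± 8.51 to 208 ± 35.9 TPM (0.59, adjusted p = 0.0252), while PYGB, the brain form, fell from 464 ± 40.7 to 356 ± 7.06 TPM (-0.38, adjusted p = 0.0247), as did PPP1R3C, a glycogen-targeting subunit (-0.55, adjusted p = 0.0439). None of the 3 passed when siControl replicate 1, 2 or 3 or siMAD2L1 replicate 2 was left out, and PYGL alone passed when siMAD2L1 replicate 3 was. Among other glycolytic isoenzymes and side enzymes 0 of 15 tested were called, with a median of -0.01, and the most abundant were BSG, the chaperone of lactate transporters (584 and 592 TPM), and HKDC1, a hexokinase relative (110 and 103 TPM). In the angiopoietin-like and VEGF family 0 of 5 tested were called, among them NRP1 (171 and 222 TPM, adjusted p = 0.198) and VEGFB (65.4 and 67.5 TPM, adjusted p = 0.814).

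**Figure D5:**
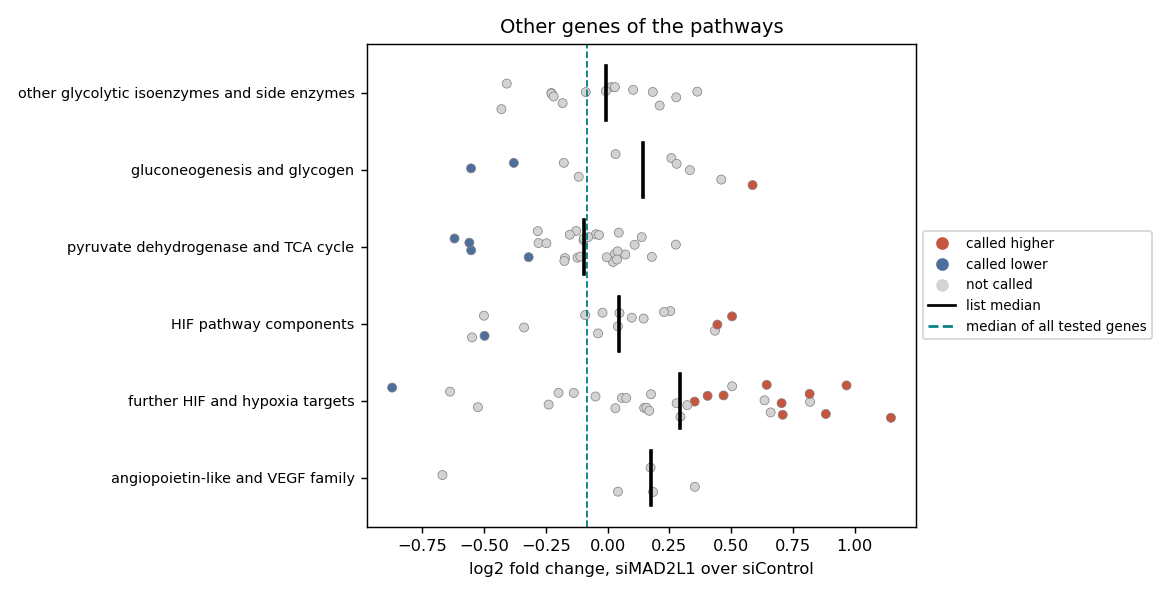
Log2 fold change of each tested gene, siMAD2L1 against siControl, 1 point per gene, by list (the pentose phosphate pathway is not drawn), with the median of each list and of all tested genes. The further HIF and hypoxia targets centre at 0.29 and the genes of pyruvate dehydrogenase and the TCA cycle at -0.10, beside -0.08 for all tested genes.

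Some members share sequence or position with other genes. In 22 members another gene with a mean of at least 1 TPM in a group overlaps the locus, in 15 of them on the opposite strand, and the strand setting of the counting is not given in the sources used here. In BNIP3L this is PNMA2 (means of 26.2 and 19.7 TPM), and in ANGPTL4 it is RAB11B-AS1 (2.16 and 2.22 TPM), both far under the member. In 3 low members the other gene was far above the member: CSNK1D (94.1 and 111 TPM, opposite strand) over SLC16A3, ARHGEF39 (4.73 and 1.76 TPM, opposite strand) over CA9, and SPTSSA (24.0 and 16.5 TPM, same strand) over EGLN3. ALDOC (means of 1.03 and 0.904 TPM) overlaps a same-strand protein-coding gene at 3.34 and 2.67 TPM. HK2 (0.804 and 0.812 TPM) overlaps HK2-DT on the opposite strand, at 2.69 and 1.76 TPM. Reads of these low members are therefore uncertain. For 18 members, processed copies elsewhere in the genome carry the member's name, 65 for GAPDH and 39 for BNIP3, and outside LDHB and SLC2A3 they summed to at most 1.90% of the member's TPM. How the authors' counting shared reads between a member and its copies is not given.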

How the data were processed

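RNA-seq libraries of SNU449 cells (3 siControl, 3 siMAD2L1, day 3) were grouped by title. The authors deposited 1 table of TPM for 60589 genes, with columns named for a negative control and for MAD, which were matched to the titles by replicate number. fastp, HISAT2, DESeq2 1.16.1 and the build hg38 are named per the submitters' processing notes; for the step that made TPM and its strand setting, the sources used here name nothing. TPM keeps no read depth, so no counting interval is given, and a rise of some genes lowers the share of others.

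The 14790 genes whose mean over the 6 libraries was 1 TPM or more were taken to log2(TPM + 1) and fitted with limma 3.58.1 in R 4.3.3 with an intensity trend and no covariates, and calls used a Benjamini-Hochberg adjusted p under 0.05 over all of them. Log2 fold changes understate low genes. Symbols came from the table, and positions and transcript lengths (the longest spliced transcript of each gene) from GENCODE 29 (GRCh38). All 38 members were found, 13 of them under an identifier joined to one from transcript assembly. Promoter windows came from RefSeq. The fit was tested on simulated data, in which 30.4% of changes of 0.5 on the log2 scale and 78.2% of changes of 1 were recovered. Of the simulated calls 5.03% were false. In each simulation 200 of the 14790 genes were changed, all drawn from better expressed genes, while 1446 genes were called in the data. Changes of the size seen in the members can be missed, at a rate that the simulations do not give. The simulated noise was independent between genes, unlike a shift shared by a whole library. Named were all members, MAD2L1 and MAD2L2, and from each other list up to 4 called genes with the largest change or the 2 most abundant where none was called; 1 gene that this rule takes is not reported here; cell type markers and genes that overlap a member are given beside them. Members, lists and tests were chosen with earlier results of these data known, so their counts are descriptions, and no test over a list was made. The 20 alternatives were other pseudocounts, filters, scalings and variance models, library weights, a replicate block, a threshold of 0.01, leaving out each library, siMAD2L1 replicate 1 alone, and removal of a transcript-length trend, which was chosen after seeing the data.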

Additional observations from a re-analysis of the deposited data

How the results depend on the processing

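Over all genes, 1446 were called; this became 727 with no filter on low values, 952 in limma without a trend, 4860 with library weights, 359 at an adjusted p of 0.01 and 356 to 2410 with a library left out. The 8 members called higher became 3 with no filter, 4 without a trend and 3 at an adjusted p of 0.01, and 2 to 12 with a library left out. The share of all genes called higher, 3.55%, became 0.877%, 2.01%, 1.04% and 0.998% to 4.78% in that order. Under quantile normalization 7 members were called higher, with GAPDH gained and PGK1 and BNIP3L lost, beside 4.65% of all genes. Members called lower, 0 over all libraries, were 3 with library weights, beside 3346 of 14790 genes. In the same fit 12 members were called higher, beside 10.2% of all genes. With a library left out, 0 to 3 members were lower. The 3 came without siMAD2L1 replicate 1, where 11.5% of all genes were lower. The median log2 fold change of the enzymes, 0.26, was 0.055 with no filter, 0.16 at a mean of at least 5 TPM and 0.079 with library weights. It was 0.074 in siMAD2L1 replicate 1 alone and 0.087 to 0.28 with a library left out. That of the other hypoxia genes, 0.23, was 0.245 with no filter or at a mean of at least 5 TPM and 0.12 with library weights. Upper-quartile scaling and quantile normalization each gave 0.28 for these genes, and removal of a transcript-length trend gave 0.31. In the rescaling without mitochondrially encoded and highest genes their median was 0.18. It was 0.45 in siMAD2L1 replicate 1 alone and 0.12 to 0.27 with a library left out. The ratio of summed enzyme TPM, 1.17, stayed between 1.14 and 1.19 with a library left out. This ratio was not taken under other scalings. The part in it of the smaller mitochondrially encoded share in siMAD2L1 was not tested. The share of called genes that were lower, 63.7%, was 52.5% with upper-quartile scaling, 50.5% with quantile normalization, 44.8% in siMAD2L1 replicate 1 alone and 44.0% with a transcript-length trend removed. Under that removal 12 members were higher and 0 lower, beside 5.81% of all genes called higher. With the replicate number as a block, 868 genes were called, 336 of them higher (2.27% of all genes tested). In that fit 7 members were called higher and 0 lower, the lost member being BNIP3L. The replicate numbers share no stated origin, and deviations of same-numbered libraries correlated at 0.0190, 0.00898 and 0.0631, so these libraries are not treated as pairs. No called member changed direction under any of the 20 alternatives; 12 uncalled members with differences near 0 or split libraries changed sign in some. Because depth is unknown, nothing can be said of the precision of members near 1 TPM (HK2, ALDOC, CA9, LDHB, SLC2A3, SLC16A3) beyond the spread between libraries.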
